A study of Gorilla gorilla with 12 samples.

Results

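The mitosis and G2/M genes are 42 genes that act between the end of DNA synthesis and the separation of daughter cells, and they were chosen by name. Probe sets annotated with exactly 1 gene symbol were searched for these names, and 39 of the 42 genes were found, among 8229 genes named on the array. A gene with several probe sets was represented by the probe set with the highest mean log2 intensity over the 11 standard arrays. TACC3 and PRC1 had no such probe set, and the probe set of CENPA also carries another symbol, so these 3 genes were not analysed. Of the 39 genes, 19 were above the lower limit of the scale on all 11 standard arrays. The samples were fibroblasts, the cells that make connective tissue, grown as lines from normal gorillas, with no genetic change or agent named. For the 6 lines labelled female, called female 1 to female 6, the donors' ages were 19, 19, 35, 26, 30 and 2 years. For the 5 labelled male, called male 1 to male 5, they were 19, 26, 24, 18 and 3 years. All 11 were harvested under standard conditions, and a second culture of male 2 was harvested at 50% confluence, when cells covered about that share of the dish. Each line is 1 animal and each culture is 1 array, so no spread within a line is known.

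Cyclins A and B bind the kinase CDK1 and start mitosis once a CDC25 phosphatase has removed inhibitory phosphates from it. Kinesin motors and their partners build the spindle, kinetochores tie chromosomes to it, and the spindle checkpoint delays separation until every chromosome is attached. CDC20 and the ubiquitin enzyme UBE2C then have securin (PTTG1) and cyclin B destroyed. Transcripts of these genes are known to accumulate in dividing cells and to be low in resting fibroblasts. In RNA from a whole culture, fewer dividing cells and less RNA per dividing cell cannot be told apart.

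Intensities were deposited on a linear scale with a floor of 100, below which signals have no order. Between 40.1% and 48.8% of probe sets were at the floor on the standard arrays, and 49.1% on the array at 50% confluence. The probes were designed on human sequence, so no gene's level is read against another's. The line labelled female 3 went against its label: the Y-linked gene RPS4Y1 had an intensity of 2595 there. Lines labelled male had 2662 to 4363, and the remaining females 100 to 115. It was left in the group its label gives, and the main results of the members are also given without it. All 9 measured fibroblast markers, collagens and vimentin among them, were above the floor on all 12 arrays, with a summed intensity of 67690 to 123218. The summed epithelial markers had 1382 to 2515, endothelial 400 to 627, leukocyte 440 to 2092, skeletal muscle 300 to 773 and melanocyte 300 to 1076. KRT5, KRT14, VWF, PTPRC and ITGAM were at the floor on all 12 arrays, while KRT8 had 882 to 1662, CD3E 140 to 252 and CD14 100 to 1673. The endothelial TEK reached 327. Of muscle markers MYOG reached 550, DES 138 and MYOD1 123, and of melanocyte markers MITF reached 449, PMEL 433 and TYR 212. The part of these in the member levels was not tested.

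The members differed widely between lines that had been harvested in the same way, and they did so together. Their mean quantile-normalized log2 level was 7.91, 8.59, 7.37, 7.74, 9.03 and 7.98 in female 1 to 6. In male 1 to 5 it was 9.24, 7.93, 8.58, 8.57 and 8.91. The order from high to low was male 1, female 5, male 5, female 2, male 3, male 4, female 6, male 2, female 1, female 4 and the line labelled female 3. The highest and the lowest line were 1.87 log2 units apart, or 1.5 without the line labelled female 3. Neighbours such as male 3 and male 4 (8.58 and 8.57) cannot be ranked, since no line has a second standard array. Of the 39 members, 20 had their highest intensity in male 1 and 8 in female 5, while 16 had their lowest in the line labelled female 3. In that line 19 of the 39 members were at the floor, against 0 in male 5 and 2 in male 1.

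**Figure D1:**
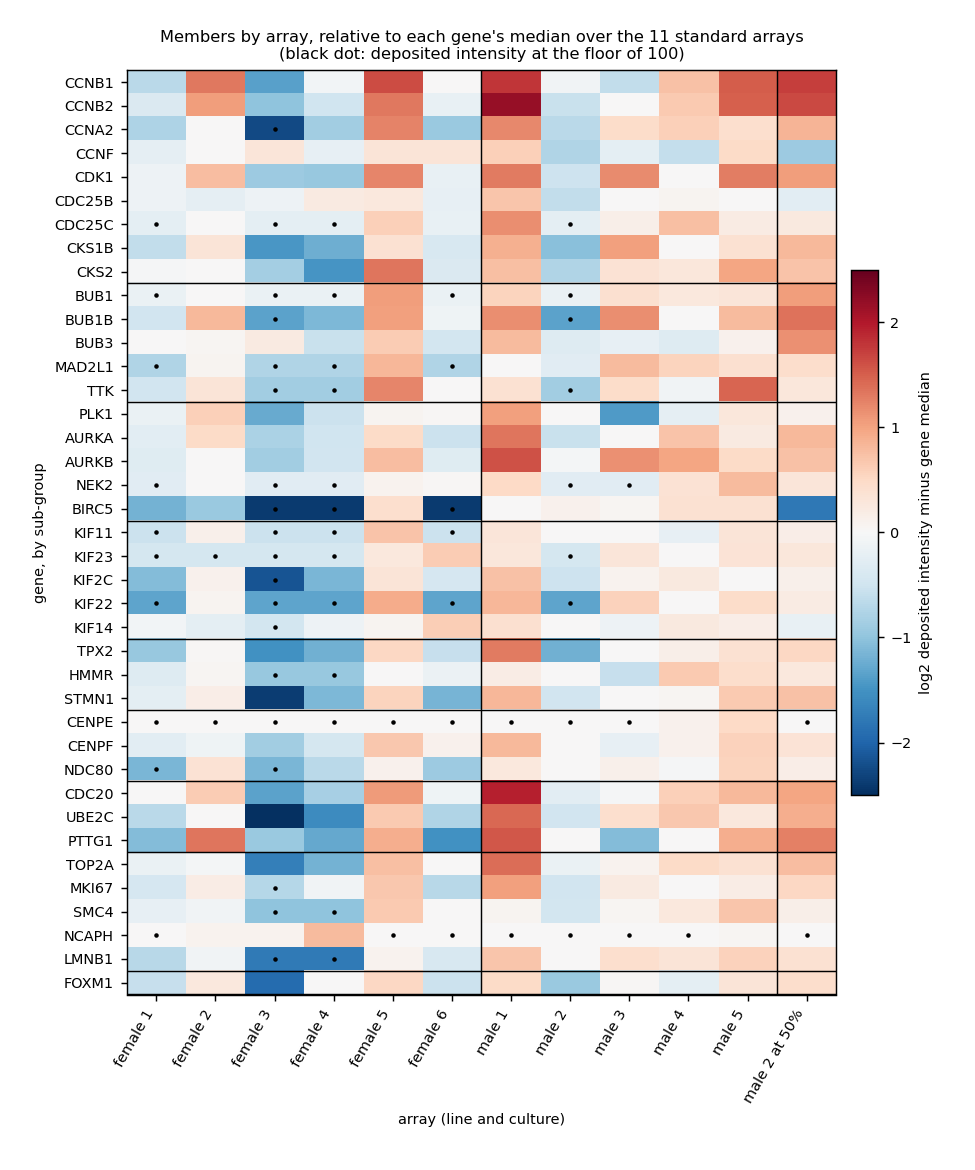
Rows are the 39 measured genes, grouped by role and divided by lines, and columns are the 12 arrays; colour is the log2 deposited intensity minus the gene's median over the 11 standard arrays, and black dots mark values at the floor of 100. The columns of the line labelled female 3 and of female 4 hold 19 and 13 black dots, and that of male 5 none.

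Spread over lines was wide for most members. Their SD of log2 level over the 11 lines had a median of 0.73 and ran from 0.14 to 1.19, beside a median of 0.41 over all 7535 probe sets tested. Of the 39 members, 22 (56.4%) were above the 90th percentile of these SDs, which is 0.68 and which 10% of probe sets exceed by construction. Without the line labelled female 3 there were 17. Members near the floor have a compressed spread, so the low SDs of CENPE, NCAPH and KIF14 are no sign of steady levels.

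The genes also ranked the lines alike. Over the 11 lines the median Spearman rho between 2 members was 0.73, across 666 pairs of the 37 members above the floor on at least 6 standard arrays. The same measure was 0 over all pairs of 6855 probe sets. Of the member pairs 79.9% had a rho of 0.5 or more, against 7.27% of all pairs. These are descriptions over 11 arrays that all genes share, and the median was 0.70 without the line labelled female 3. The closest pairs were BUB1 with KIF22 (0.98), CCNB2 with TPX2 (0.97) and AURKB with UBE2C (0.97). BUB1 and KIF22 were both at the floor in the same 5 lines, where their signals have no order. TPX2, which activates Aurora A on the spindle, followed the mean of the other members most closely (rho 0.95, n = 11), and 24 members had a rho of 0.8 or more. The 6 members under 0.6 were CCNF (0.40), CDC25B (0.45), KIF23 (0.53), KIF14 (0.53), PLK1 (0.54) and BUB3 (0.55).

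**Figure D2:**
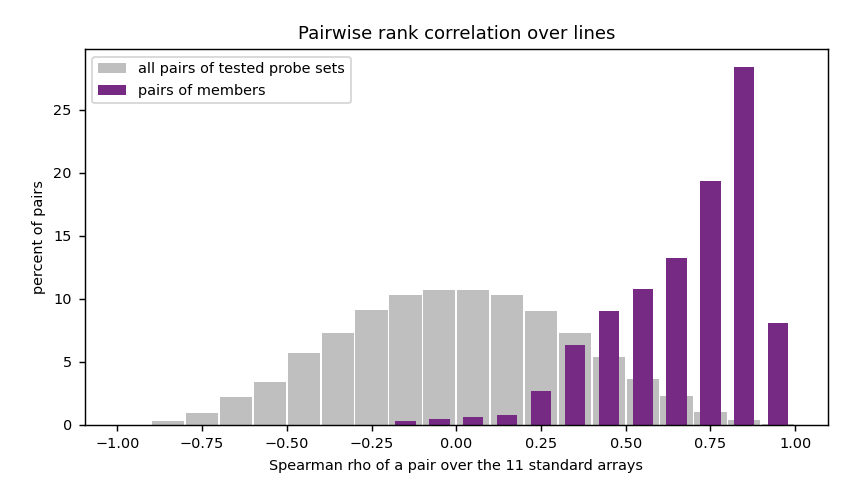
The x axis is Spearman's rho of a pair over the 11 standard arrays and the y axis the percent of pairs, for the members (purple) and for all tested probe sets (grey). Member pairs centre on 0.73 and all pairs on 0.

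Measures of array and RNA quality were weakly correlated with the member mean. Over the 11 lines the member mean had a Pearson r of 0.17 with the percent of probe sets at the floor, 0.02 with the 3' to 5' ratio of GAPDH and -0.21 with that of ACTB, ratios that mark RNA quality. With donor age it had -0.28. The part of array and RNA quality in the differences between lines was not tested.

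Cyclin B1 and cyclin B2 are the partners of CDK1 at mitotic entry. CCNB1 had a lowest, median and highest intensity of 149, 372.5 and 1187 in the female lines and 1315, 358, 250, 634 and 1082 in male 1 to 5. CCNB2 had 134, 222.5 and 671 in the female lines and 1224, 182, 269, 424 and 755 in the male lines. For both genes male 1, female 5 and male 5 were high, the line labelled female 3 was lowest, and the sexes overlapped. CCNA2, the cyclin of S and G2 phase, had 100, 272 and 1137 in the female lines and 1098, 300, 658, 725 and 644 in the male lines. CDK1 itself had 189, 326.5 and 847 in the female lines and 900, 255, 828, 364 and 887 in the male lines. On the chosen probe sets male 3 was therefore among the high lines for CDK1 but among the low ones for CCNB1 (828 and 250). A further CDK1 probe set did not show male 3 as high. Its value there was 175, below the median of 178 over the standard lines, and male 1 had the highest, 296.

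CKS1B and CKS2 are small adaptor subunits of cyclin-dependent kinases. CKS1B had 253, 488.5 and 904 in the female lines and 1279, 335, 1405, 694 and 904 in the male lines. CKS2 had 194, 471.5 and 1357 in the female lines and 911, 320, 692, 655 and 1067 in the male lines. The highest line was male 3 for CKS1B and female 5 for CKS2. Of the phosphatases that activate CDK1, CDC25B varied from 488 to 1199 over the 11 lines, and CDC25C was at the floor in 4 lines and reached 268 in male 1. CCNF, an F-box protein that marks other proteins for destruction, had 272 to 694.

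The spindle checkpoint had 5 measured genes. BUB1B (BubR1), which holds back CDC20 until chromosomes are attached, had 100, 207.5 and 516 in the female lines and 562, 100, 567, 252 and 437 in the male lines. Its values at the floor were those of male 2 and the line labelled female 3. BUB1, a kinase of the same checkpoint, was at the floor in 5 lines and reached 232 in female 5. MAD2L1 was at the floor in 4 lines with a highest value of 300, and the checkpoint kinase TTK in 3 lines with 505 in male 5. BUB3, the partner that brings BUB1 and BUB1B to kinetochores, was above the floor in all lines, at 527 to 1333. As a sub-group the checkpoint genes were highest in female 5 (8.81) and lowest in female 4 (7.20).

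Among mitotic kinases, AURKB, the kinase of the chromosomal passenger complex, had 402, 598 and 1259 in the female lines and 2222, 710, 1609, 1449 and 1015 in the male lines. AURKA, which acts at spindle poles, had 164, 218 and 392 in the female lines and 717, 192, 282, 465 and 329 in the male lines. PLK1, a kinase needed from mitotic entry to cytokinesis, ran from 354 in male 3 to 1928 in male 1. Male 3 thus had the lowest PLK1 of all lines and the second highest AURKB (1609). NEK2, a centrosome kinase on a probe set that can match several transcripts, was at the floor in 5 lines and reached 208.

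BIRC5 (survivin), the passenger protein that binds AURKB and carries it to the centromere, had the largest SD of the members. It had 229, 275, 100, 100, 698 and 100 in female 1 to 6 and 522, 560, 543, 682 and 680 in male 1 to 5. All 5 male lines were therefore close together, and female 5 stood with them. The other BIRC5 probe set did not show this: its values were 100 to 314 among females and 116 to 277 among males, and its rho with the first was 0.17.

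Most motors and spindle proteins ranked the lines like the other members, KIF23 and KIF14 less so. KIF2C, which takes microtubules apart at kinetochores, had 100, 272.5 and 555 in the female lines and 746, 313, 474, 525 and 446 in the male lines. KIF22, a motor on chromosome arms, was at the floor in 5 lines, male 2 among them, and had 472 in female 5 and 441 in male 1. TPX2 had 252, 427.5 and 1028 in the female lines and 1769, 313, 722, 804 and 940 in the male lines. STMN1 (stathmin), a protein that destabilises microtubules, had 173, 589 and 1326 in the female lines and 1601, 646, 901, 938 and 1417 in the male lines, on a probe set that can match several transcripts. KIF11, KIF23, KIF14 and HMMR were each at the floor in at least 1 line and had highest values of 240, 211, 212 and 303. KIF23 and KIF14 were highest in female 6, the donor of 2 years, and were each other's closest member (rho 0.87).

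The kinetochore genes were CENPF, NDC80 and CENPE. CENPF had 172 to 554. NDC80, which grips the ends of microtubules, had 100, 129.5 and 285 in the female lines and 265, 222, 241, 217 and 325 in the male lines. CENPE was at the floor in all lines but male 4 (108) and male 5 (142).

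The genes of anaphase onset had the widest range between lines of the sub-groups, 3.26 log2 units. All of them were above the floor in every line, while members at the floor narrow the range of other sub-groups. UBE2C had 209, 883 and 2260 in the female lines and 3896, 1033, 1935, 2310 and 1726 in the male lines. CDC20 had 367, 898.5 and 1959 in the female lines and 3583, 780, 911, 1403 and 1642 in the male lines. PTTG1, securin, had 308, 437.5 and 2204 in the female lines and 2556, 879, 415, 877 and 1636 in the male lines. Female 2 was thus high for PTTG1 (2204), close to male 1, while male 3 was low (415).

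Of genes for chromosome and nuclear structure, the DNA topoisomerase TOP2A had 204 to 1752 and the proliferation marker MKI67 (Ki-67) 100 to 335. LMNB1, a lamin of the nuclear envelope, had 100, 232.5 and 358 in the female lines and 550, 339, 452, 423 and 503 in the male lines. The condensin subunit SMC4 had 100 to 327. NCAPH, another condensin subunit, was at the floor in 7 lines and had 172 in female 4, a line with a low member mean (7.74). FOXM1, a transcription factor that activates many genes of this list, had its lowest value, 211, in the line labelled female 3, and the rest ran from 422 to 1140. Of the 8 sub-groups with more than 1 gene, 6 were highest in male 1 and 7 lowest in the line labelled female 3.

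**Figure D3:**
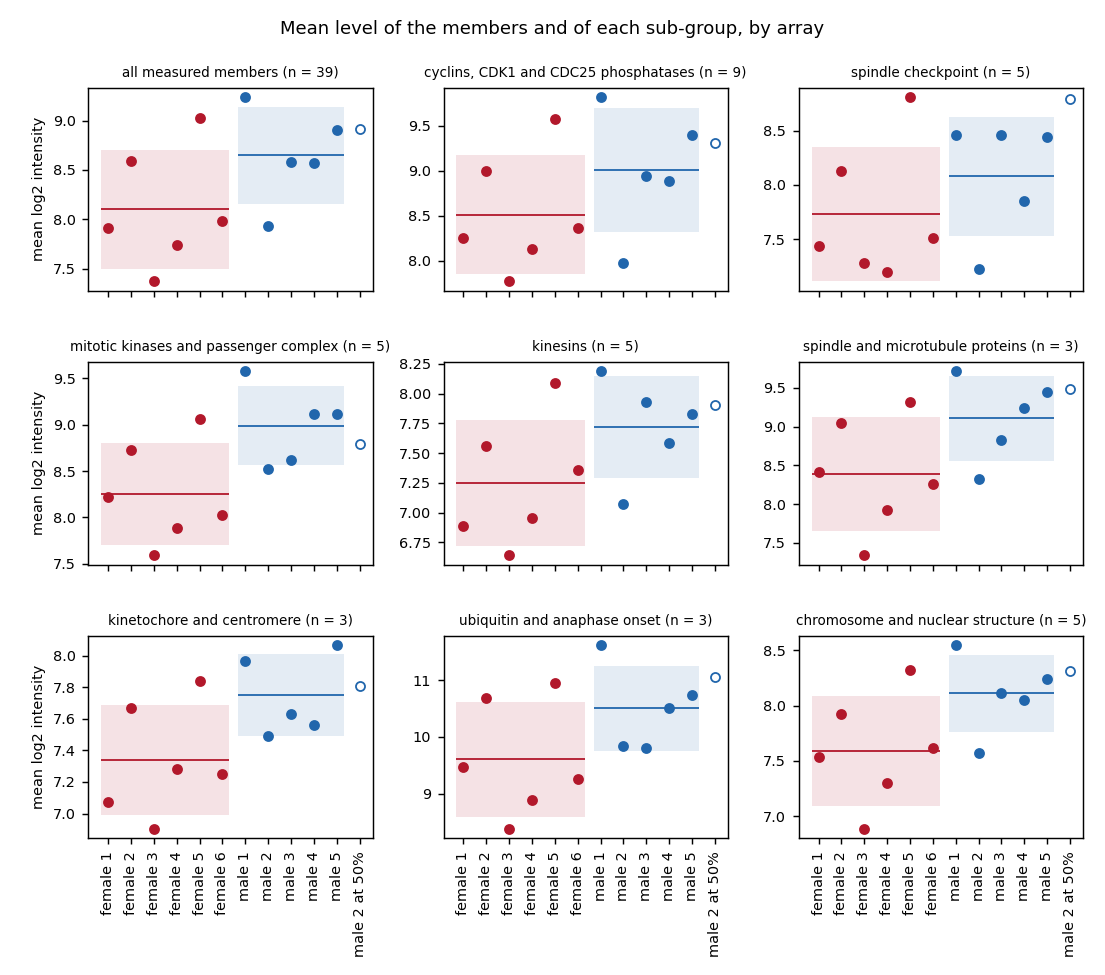
Each panel plots the mean quantile-normalized log2 intensity of a set of members on the 12 arrays, with female lines in red, male lines in blue and the culture at 50% confluence as an open circle; lines and bands are the mean ± SD of the 6 female and 5 male standard lines. The line labelled female 3 is lowest in all panels but that of the checkpoint genes, and the open circle lies above male 2 in all panels.

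At 50% confluence the members were higher than in the standard culture of the same line. Of the 39 members 36 (92.3%) were higher in quantile-normalized values, and 20 (51.3%) by 2-fold or more. Over all probe sets tested 47.8% were higher and 6.97% were higher by 2-fold or more. The members had a median difference of 1.09 log2 units, beside 0.00 over all probe sets. With 1 array per condition there is no replicate check and no p-value. Scaling each array by its median raised both values, to 1.43 for the members and 0.44 for all probe sets. On the deposited values the medians were 0.94 and -0.06, 34 members were higher and 18 were so by 2-fold or more.

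The cyclins and checkpoint genes led. CCNB2 had an intensity of 182 in the standard culture and 848 at 50% confluence, a normalized difference of 2.36 log2 units. CCNB1 went from 358 to 1268 (1.86), CCNA2 from 300 to 868 (1.59) and CDK1 from 255 to 756 (1.65). CKS1B went from 335 to 1214 (1.89) and CKS2 from 320 to 883 (1.5). So 6 of the 9 members of this sub-group were 2-fold or more higher, and the remaining ones were CDC25B (0.39), CDC25C (100 to 141) and CCNF.

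All 5 checkpoint genes were 2-fold or more higher in normalized values on the chosen probe sets. Further probe sets of BUB3 (0.10 log2 units) and MAD2L1 (at the floor in both cultures) did not show this. BUB1B had 646 at 50% confluence and stood at the floor before, at least 6.46-fold higher. BUB1 (100 and 230) and TTK (100 and 224) were at least 2.30-fold and 2.24-fold higher. BUB3 had 615 and 1699, while MAD2L1, at 138 and 230, was 1.67-fold higher on the deposited values and 2.13-fold after normalization. In all, 7 members were at the floor in the standard culture and above it at 50% confluence, the others being KIF22 (287), KIF23 (165), NEK2 (150) and CDC25C (141).

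Spindle and anaphase genes moved in the same direction. TPX2 had 313 and 1034 (1.77 log2 units), AURKA 192 and 492 (1.56) and FOXM1 422 and 1086 (1.38). KIF22 was at least 2.87-fold higher. All 3 genes of anaphase onset were 2-fold or more higher, UBE2C with 1033 and 2697, CDC20 with 780 and 1846, and PTTG1 with 879 and 2086. STMN1 had 646 and 1491, and MKI67 119 and 236.

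Other members differed less. AURKB (710 and 1216), KIF2C (313 and 484), TOP2A (596 and 1142), SMC4 (146 and 223) and LMNB1 (339 and 443) differed by less than 2-fold. So did KIF11 (146 and 163), HMMR (192 and 231), CENPF (315 and 398) and NDC80 (222 and 249). PLK1 had 944 and 1015, a difference of 0.01 log2 units. KIF14 and CCNF changed sign with the scaling: KIF14 was at 0.28 normalized and -0.18 on deposited values, and CCNF at 0.08 and -0.16. CENPE and NCAPH were at the floor in both cultures. BIRC5 was lower, with 560 in the standard culture and 151 at 50% confluence (-1.67 log2 units), and over all probe sets 7.25% were lower by 2-fold or more. Its other probe set went the opposite way, from 116 to 269 (1.5).

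Most members at 50% confluence lay within the range of the standard arrays. The member mean of that culture, 8.92, lay below male 1 (9.24) and female 5 (9.03) and beside male 5 (8.91). For 2 members, BUB1B and BUB3, it was above the range of the 11 standard arrays, as were 5.08% of all probe sets, and for CCNF it was below. These counts were the same without the line labelled female 3. The 2 arrays of the pair differed in signal as well: 40.1% of probe sets were at the floor in the standard culture and 49.1% at 50% confluence, and the part of this in the member differences was not tested.

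**Figure D4:**
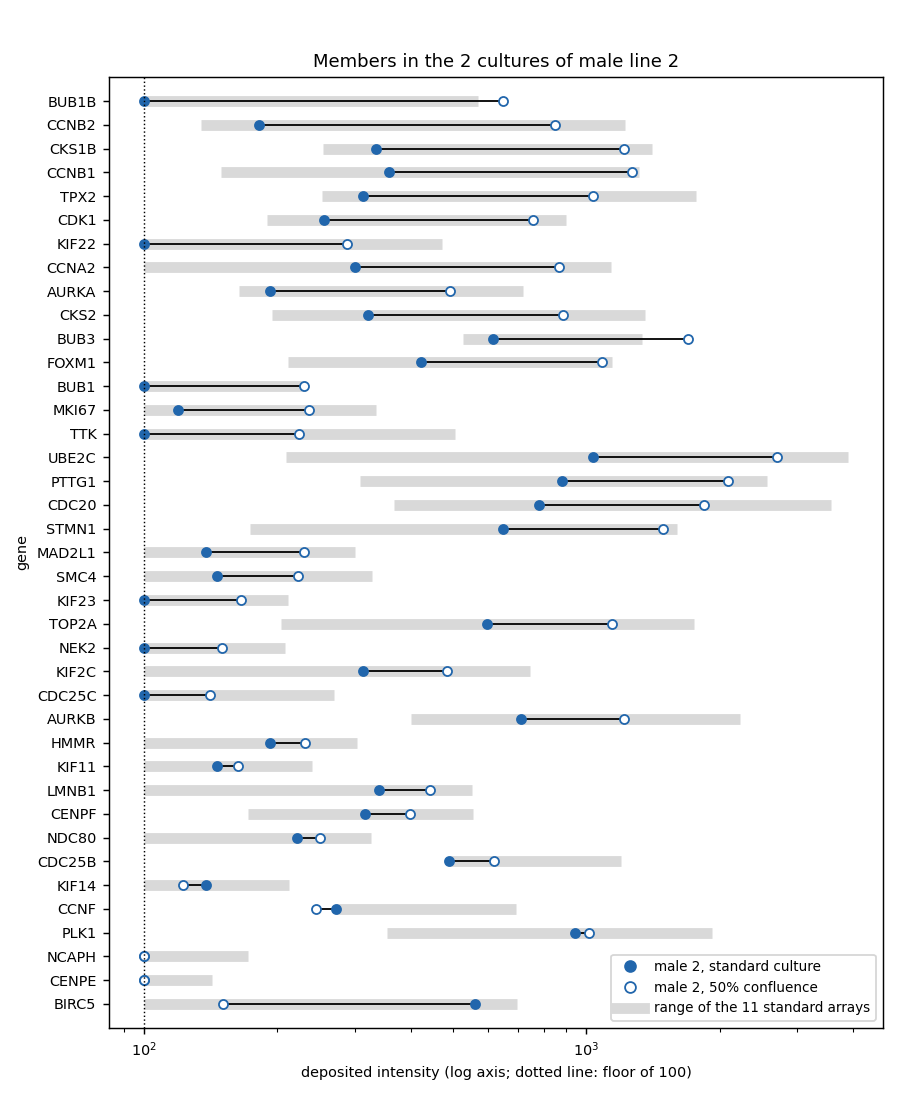
For each member the x axis gives the deposited intensity (log scale) of male 2 in standard culture (filled) and at 50% confluence (open), over the range of the 11 standard arrays (grey), sorted by the normalized difference. Open circles lie to the right for all members but KIF14, CCNF, BIRC5 and the 2 at the floor in both cultures, and only BUB1B and BUB3 pass the grey range upward.

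Of the 10 members with several probe sets, 14 further probe sets were available as a check. For 7 of them the rho with the chosen one over the 11 lines was 0.5 or more, as for CCNB1 (0.84), CCNA2 (0.94), CDK1 (0.82), AURKA (0.78) and TOP2A (0.93 and 0.89). For 5 it was lower, namely both of CCNF (-0.14 and 0.35), BUB3 (0.47), BIRC5 (0.17) and MKI67 (0.01, above the floor in 2 lines). The remaining 2, of CDK1 and MAD2L1, were at the floor on all standard arrays. At 50% confluence the further probe sets gave 2.83 log2 units for CCNB1, 1.87 and 1.74 for TOP2A and 1.5 for AURKA, but 0.62 for CCNA2, 0.27 for CDK1 and 0.10 for BUB3. The size of the difference thus depended on the probe set for CDK1, CCNA2, BUB3, CCNB1 and TOP2A, which was under 2-fold on the chosen probe set and over it on both others. For BIRC5 the sign did. The further probe sets of MAD2L1 and MKI67 were at the floor of 100 in both cultures of male 2 and showed no difference. The chosen ones gave 1.09 and 1.30 log2 units.

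Between the sexes, as labelled, the members leaned toward higher values in the male lines without any passing the test. Of the 39 members, 36 (92.3%) had a higher mean in the male lines, beside 48.8% of all probe sets tested, with a median of 0.54 log2 units beside -0.01. The member mean was 8.65 ± 0.49 (SD, n = 5) in the male and 8.10 ± 0.60 (SD, n = 6) in the female lines. Both limma and its Benjamini-Hochberg adjustment ran over 7535 probe sets, of which 37 were members, and 0 members were called (0% of all probe sets as well). The smallest adjusted p among members was 0.725, for BIRC5. Because the members rank the lines alike, their differences are not separate results, and a high or low line moves most of them.

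At an unadjusted p under 0.05, 7 of the 37 tested members (18.9%) were higher in the male lines and 0 lower, against 2.68% and 2.57% of all probe sets. BIRC5 was higher by 1.68 log2 units (SE 0.43), LMNB1 by 1.18 (SE 0.33) and AURKB by 1.0 (SE 0.31). The next were UBE2C at 1.30 (SE 0.50), NDC80 at 0.72 (SE 0.29), HMMR at 0.55 (SE 0.25) and KIF2C at 0.83 (SE 0.39). On normalized values all 5 male lines were above the female median for each of these 7 genes. On deposited values male 3 was below it for HMMR (129 against 163.5), and 0 of the 39 members separated the sexes fully. Female 5 reached the lowest male value for each of the 7. Without the line labelled female 3 the differences were 1.5, 0.99, 0.87, 0.91, 0.60, 0.45 and 0.55 in the same order. The number of members with an unadjusted p under 0.05 was then 4 in place of 7: NDC80 had an unadjusted limma p of 0.0612, HMMR 0.0951 and KIF2C 0.112. Of the 37 tested members 34 were positive, with a median of 0.44 in place of 0.55. With a floor of 200 the differences of NDC80 and HMMR were 0.19 and 0.20. BIRC5 differed by 0.41 on its other probe set. CCNB1 (0.54, SE 0.54), PLK1 (0.16, SE 0.38), FOXM1 (0.30, SE 0.39) and CDC25B (0.04, SE 0.22) differed by no more than about their standard error.

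**Figure D5:**
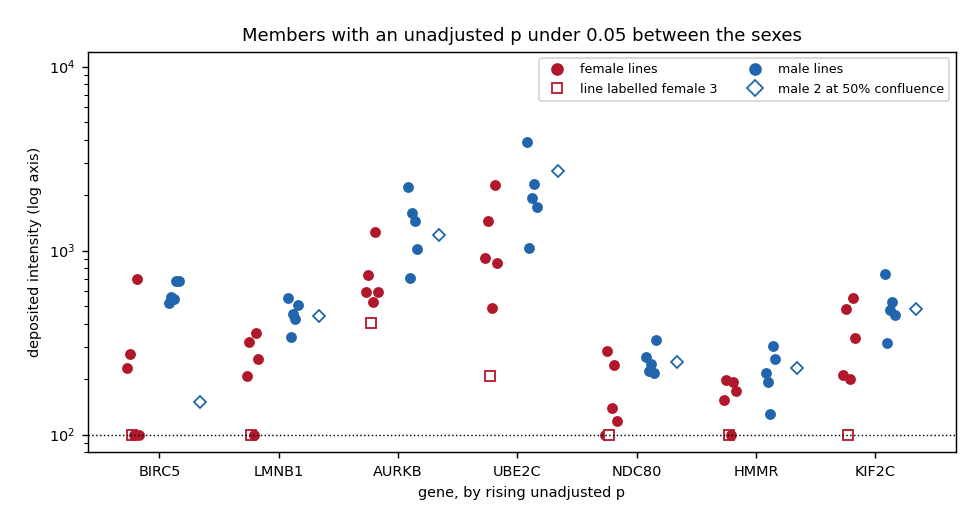
The y axis is the deposited intensity (log scale) of the 7 members with an unadjusted p under 0.05 between the sexes, in the female lines (red, with the line labelled female 3 as an open square), the male lines (blue) and male 2 at 50% confluence (diamond); the dotted line is the floor of 100. In each gene at least 1 female line lies within the male range or, for BIRC5, above it.

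With donor age, fitted with sex as a covariate over the same 11 lines, no member was called and none had an unadjusted p under 0.05. Over all probe sets limma called 0%, and 2.52% had such a p with a positive and 2.92% with a negative slope. Of the 39 members 12 (30.8%) had a positive slope, beside 49.4% of all probe sets, with a median of -0.17 log2 units per 10 years. PLK1 had -0.32 (SE 0.19), CCNB1 -0.31 (SE 0.28) and TTK -0.27 (SE 0.22), and the smallest adjusted p of a member was 0.910 (limma). The size of the lean depended on single lines. Over the 37 tested members the median was -0.17, with 11 positive. It was -0.05 without the line labelled female 3, the oldest donor by label, with 18 positive. Without male 2 it was -0.08, with 14 positive. The lean was stronger without female 6, the donor of 2 years (median -0.29, 2 positive). It was also stronger without female 5, of 30 years (-0.26, 1 positive).

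Other genes of cell division gave a mixed picture. Of 77 tested genes on lists outside the members, limma called 0 for sex or age. An unadjusted p under 0.05 was found for 18 with sex and 3 with age, beside 2.68% positive and 2.57% negative of all probe sets for sex, and 2.52% and 2.92% for age. Of the 18, 12 were replication genes. All 18 but MNAT1 (-0.60) were higher in the male lines. All 24 tested replication genes had a positive male minus female difference (median 0.80), beside 48.8% of all probe sets. These values count the line labelled female 3 as female and are not given without it. The mean of the replication genes had a rho of 0.80 with the member mean, so their differences are not separate results. One list held the anaphase-promoting complex, the ligase that UBE2C and CDC20 serve, together with its regulators. In it 7 of 9 tested genes were higher at 50% confluence, FZR1 by 0.01 log2 units, and 0 of them 2-fold. The median was 0.23 log2 units. The condensin and cohesin list, the rings that shape and hold chromosomes, had 8 of 10 higher, with NCAPD2 from 371 to 1058 and NCAPD3 from the floor to 348. Of other kinesin, kinetochore and spindle genes 11 of 13 were higher and 0 by 2-fold or more (median 0.45), among them RAN, the GTPase of spindle assembly, from 7363 to 11701. Among regulators of entry to G2 and mitosis, CDKN3, a phosphatase that acts on cyclin-dependent kinases, had 230 and 644 and MNAT1, a subunit of the CDK-activating kinase, 100 and 276. WEE1, the kinase that restrains CDK1, went the other way, from 463 to 203. In the RB, E2F and DREAM list 5 of 10 were higher, and only MYBL2, the activator of mitotic genes known as B-MYB, was so by 2-fold or more (141 and 319). The 1 tested gene of the cytokinesis list, RHOA, changed sign with the scaling, with deposited values of 17551 and 13598 and a normalized difference of 0.41. The counts of higher genes are of normalized values. CDC23 (199 and 179), WAPL (196 and 185), CENPC (159 and 146) and LIN37 (334 and 333) count as higher but were lower on deposited values. UBE2S (3161 and 3313) and RBL2 (721 and 745) went the reverse way.

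Genes of DNA replication varied over the lines in a similar order. The mean of 24 replication genes had a rho of 0.80 with the member mean (n = 11), and that of the other kinesin, kinetochore and spindle genes 0.93. At 50% confluence 21 of the 24 replication genes were higher in normalized values (median 0.89). Among these, MCM3 (231 and 213), MCM4 (318 and 314) and POLE2 (137 and 111) were lower on deposited values. RRM1 (198 and 706), RRM2 (100 and 262), LIG1 (100 and 323), CDC45 (161 and 344) and MCM5 (251 and 500) were so by 2-fold or more after normalization, and PRIM1 (235 and 100) was lower.

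The 10 other genes most like the members over the lines, by Spearman's rho with the member mean, were ANP32E, HMGN2, ZBTB18, GTSE1, RPA1, DESI2, TK1, PSMA4, VDAC3 and KHDRBS1, with rho from 0.96 to 0.91 (n = 11). Since they were picked by this rho, sharing the highest and lowest lines of the members is no further result. GTSE1, a G2 and S phase protein that binds microtubules, had 358 to 1818, lowest in the line labelled female 3 and highest in male 1. HMGN2, a nucleosome-binding protein, had 4752 to 22064, with the same lines at the ends. ANP32E, a histone chaperone, had 178 in female 4 and 1148 in male 1. TK1, a thymidine kinase of S phase, had its lowest value, 348, in the line labelled female 3 and its highest, 3510, in male 1, but was lower at 50% confluence, 1203 against 1494 in the standard culture.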

How the data were processed

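The values are intensities, 1 whole number per probe set and array, as the authors deposited them; their software, scaling and floor have no description in the labels. The probe annotation listed 10961 probe sets with 1 symbol, 545 with several and not the other 1119. Members, lists, tests and the rule for named genes were chosen with earlier results of these data known. All 42 symbols are in the gorilla gene table of RefSeq. Intensities were taken to log2 and quantile normalized over 12 arrays; 67 control probe sets were left out of tests. Probe sets with a mean above the 40th percentile of the 11 standard arrays, 7535 in all, were fitted with limma 3.58.1 in R 4.3.3 (lmFit, eBayes) with Benjamini-Hochberg adjustment at 0.05, for male minus female and for the slope per 10 years of age with sex as a covariate. The filter passed 37 of the 39 measured members, not CENPE and NCAPH. Differences of all 39 are given, and p-values of the 37. Printed intensities are as deposited, and log2 values are normalized unless said otherwise. A difference against the floor is given as at least the ratio of deposited values. The cultures of male 2 were compared without a test. Genes with values by line were the 12 members of largest SD, the 10 largest differences at 50% confluence per direction, and those with an unadjusted p under 0.05; others were chosen after their values were seen. Standard lines come from different animals, whose spread the p-values measure. The number of arrays limits the precision. On simulated arrays of 7535 probe sets with 200 changed between the sexes, limma recovered 48% at 1 log2 unit and 95% at 2. Each simulated probe set was drawn independently from a normal distribution with its own mean and SD, without a floor. The changed ones were picked at random over all probe sets. Members had a larger median SD (0.73 against 0.41) and moved together, so these shares do not describe them. A search of promoter motifs was not run, since no sequence table was used here.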

Additional observations from a re-analysis of the deposited data

Results flagged for a closer look

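In groups of 6 female and 5 male lines, the gap of the highest or lowest line to the next was set against the range of the group, on normalized log2 values, by Dixon's 95% limit (0.625 and 0.71); chance alone passes it in about 1 of 20 groups. Of 96 groups of members and sub-groups, 5 passed. The gap was 0.69 of the range for CDC25C in the female lines, where female 5 had 181 and the others 100 to 119. It was 0.83 for BUB1 in the female lines, where female 5 had 232 and the others 100 to 112. It was 0.84 for NCAPH in the female lines, with 172 in female 4 and 100 to 107 in the others. In the male lines it was 0.90 for CENPE, with 142 in male 5 and 100 to 108 in the others, and 1.0 for NCAPH, with 103 in male 5 and the floor in the other 4. In each of these groups at least 3 of the other lines stood at the floor, which shortens the range. NCAPH in male 5 stood 3 intensity units above the floor.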

How the results depend on the processing

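The count of probe sets called between the sexes, 0, was 2 with median scaling and 2 with male 2 represented by its array at 50% confluence, and ran from 0 to 1 with each line left out (1 without the line labelled female 3). It was 0 in the other alternatives, and the count for age was 0 in all of them. Members called were 0 for sex and age in every alternative. The median sex difference of the tested members, 0.55, ran from 0.39 (without male 1) to 0.83 (without female 5) with each line left out, and from 0.37 (floor of 200) to 0.84 (50% array for male 2) otherwise. The median age slope stayed negative, from -0.34 in adult donors to -0.04 with the floor of 200. At 50% confluence 20 members were 2-fold or more higher, 15 with the floor of 200, 17 with the mean over all probe sets of a gene, 26 with median scaling, 27 past 1.5-fold and 8 past 3-fold. Their median difference, 1.09, was 0.51 with the floor of 200, which sets low values of both cultures equal. BIRC5 was not 2-fold lower with the mean over all its probe sets. The order of the lines had a rank correlation of 0.96 or more with that reported under 5 other settings, with male 1 highest and the line labelled female 3 lowest in each. The gap between the highest and lowest line, 1.87, was 1.39 with the floor of 200 and 2.3 over the members above the floor on all standard arrays. In an alternative added after the data were seen, each line was left out. The gap then ran from 1.5 to 1.87 and the median rho of member pairs from 0.70 to 0.78.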
